A study of Mus musculus with 28 samples.

Results

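Siglecs are cell surface lectins that bind sialic acids, the sugars that cap most glycans of a cell. The genes described here are 6 mouse genes chosen by name from the 48587 genes of the count table: Cd33, Siglece, Siglecg, Siglecf, Cd22 and Siglec1. Most Siglecs carry inhibitory motifs in their cytoplasmic tail that recruit the phosphatases Ptpn6 and Ptpn11 and dampen the activation of immune cells. Others pair with the activating adaptor Tyrobp, and Siglec1 has no signalling motif of its own and serves adhesion. Human CD33 is a risk gene for Alzheimer's disease (AD) and is known as a brake on the uptake of amyloid by microglia, the macrophages of the brain.

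Expression was measured by RNA-seq of FACS-isolated CD11b+CD45low microglia from the hippocampus of 28 mice, 1 library per mouse. The 5xFAD mice were male and heterozygous for transgenes that drive mutant human APP and PS1 from the neuronal Thy-1 promoter, a mouse model of amyloid deposition, and the WT mice were littermates without the transgenes on the same C57BL/6J background. All mice were 16 weeks old. Microglia came from 5 WT and 3 5xFAD mice kept under specific pathogen-free (SPF) conditions, from 4 WT and 5 5xFAD germ-free (GF) mice, and from 5 WT and 6 5xFAD mice raised under SPF conditions and given vancomycin, cefoxitin, gentamicin and metronidazole (ABX) in the drinking water for 8 weeks. GF mice came from another animal facility than the SPF and ABX mice, so GF housing and facility cannot be told apart. A mouse is named by its genotype (FAD for 5xFAD), condition and number. Mouse FAD_GF_201 is 5xFAD by its title and genotype label and WT by its description, and it was used as 5xFAD.

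Library totals lay between 14441610 and 29977395 reads, with a median of 19499296. Values are CPM, the reads of a gene relative to the TMM-scaled library size, and the 6 Siglec genes were among the 15298 genes that passed the filter on low counts and were tested. A gene was called where its Benjamini-Hochberg adjusted p-value in edgeR's quasi-likelihood test was under 0.05. Sample descriptions follow 3 numbering styles that coincide in part with the groups, and the sources do not say that they mark a batch. The comparison of 5xFAD with WT mice under GF conditions and that of ABX with SPF WT mice lie within 1 style, and so does ABX against GF in 5xFAD mice without FAD_ABX_1151. ABX and SPF 5xFAD mice share a style only through FAD_ABX_1151. In the other comparisons style and group cannot be told apart. The summed level of 10 microglial markers, relative to library totals, lay between 63651 and 71211 CPM in WT and between 49096 and 60688 CPM in 5xFAD libraries. Neutrophil markers reached 61.1 to 263 CPM in the 3 SPF 5xFAD mice and 144 CPM in FAD_ABX_1151, and did not exceed 1.38 CPM in the other libraries. The SPF 5xFAD mice and FAD_ABX_1151 together make up 1 of the 3 numbering styles, so this level coincides fully with that style. The sort had removed cells positive for Ly6G, a surface protein of neutrophils, or for Ly6C. The part of these sums in the differences between genotypes was not tested.

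Of the 6 genes, 5 lie on chromosome 7 of the mouse genome (GRCm38, GENCODE M21). Siglecf (chr7:43351341-43359531, plus strand), Siglecg (chr7:43408204-43418358, plus strand), Cd33 (chr7:43524216-43544428, minus strand) and Siglece (chr7:43651070-43660161, minus strand) follow each other with gaps of 48672, 105857 and 106641 bases. Cd22 (chr7:30865402-30880342, minus strand) lies apart from this cluster and 18833 bases from Mag, and Siglec1 (chr2:131069220-131086765, minus strand) lies on chromosome 2. Siglecf and Cd33, which lie on either side of Siglecg and moved in opposite directions in 5xFAD microglia, are shown with their promoters, because these share a run of 16 bases, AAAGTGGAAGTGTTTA, given in capitals. Both sequences are RefSeq promoters (GRCm38.p6) of 300 bases on the strand of the gene, from 250 bases before to 50 after the start, at chr7:43351091-43351390 for Siglecf and chr7:43533122-43533421 for Cd33.
Siglecf: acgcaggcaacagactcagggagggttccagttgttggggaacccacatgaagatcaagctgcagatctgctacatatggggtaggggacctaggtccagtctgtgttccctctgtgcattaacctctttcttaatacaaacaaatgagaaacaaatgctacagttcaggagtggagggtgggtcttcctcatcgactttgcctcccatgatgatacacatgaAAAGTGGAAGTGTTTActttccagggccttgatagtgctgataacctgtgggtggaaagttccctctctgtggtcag
Cd33: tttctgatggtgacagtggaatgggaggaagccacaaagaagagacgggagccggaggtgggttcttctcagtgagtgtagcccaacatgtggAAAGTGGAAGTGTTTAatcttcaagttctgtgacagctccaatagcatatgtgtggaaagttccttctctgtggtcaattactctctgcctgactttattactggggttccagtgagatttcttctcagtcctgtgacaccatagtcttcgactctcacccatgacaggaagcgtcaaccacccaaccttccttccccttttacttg
The RefSeq start of Siglecf is also the first base of its gene model, whereas that of Cd33 lies inside the gene model given above, downstream of its 5′ end. The run ends 12 bases before the RefSeq start of Siglecf and 142 bases before that of Cd33. Among 32851 RefSeq promoters of this length it was present in 2, those of Siglecf and Cd33. The run was chosen as the longest that any 2 of the Siglec family promoters shared. Its presence in these 2 therefore follows from the choice. When both promoters were aligned on the run without gaps, 63 of 170 bases were identical (37.1%). This share misses a further stretch of 25 bases downstream of the run, which is shifted by 1 base between the promoters and has 24 identical bases, so that the likeness of the promoters is not limited to the run. It reads as follows.
Siglecf: gtggaaagttccctctctgtggtca
Cd33: gtggaaagttccttctctgtggtca

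The run holds the ETS-type motif GGAAGTG, which occurred on either strand in 11.0% of all promoters, and the promoter of Siglech had it as well, on the other strand. RefSeq promoters were found for 5 of the 6 genes and not for Siglec1, and that of Siglec15 was not scanned. A match in letters is a description and shows no binding.

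Compared per length, as CPM per kilobase of exon averaged over the 28 mice, Cd33 was the most abundant of the 6 genes with 85.7, followed by Siglece with 59.0, Siglecf with 26.03, Cd22 with 4.40, Siglecg with 1.93 and Siglec1 with 0.80. Siglech, a receptor that pairs with Tyrobp and marks microglia, stood above all of them with 756 CPM per kilobase. Mag, the myelin-associated glycoprotein of oligodendrocytes, reached 5.55 CPM per kilobase. Siglec15 had 0 reads in all 28 libraries, where a count of 0 allows at most 0.100 to 0.208 CPM. Thus 473 of the genes tested had a higher level per length than Cd33, and 11351 had a higher level than Siglec1. In reads, Cd33 was counted 7179 to 24543 times per library and Siglec1 0 to 366 times, so that counting noise is largest relative to the level of Siglec1.

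**Figure D1:**
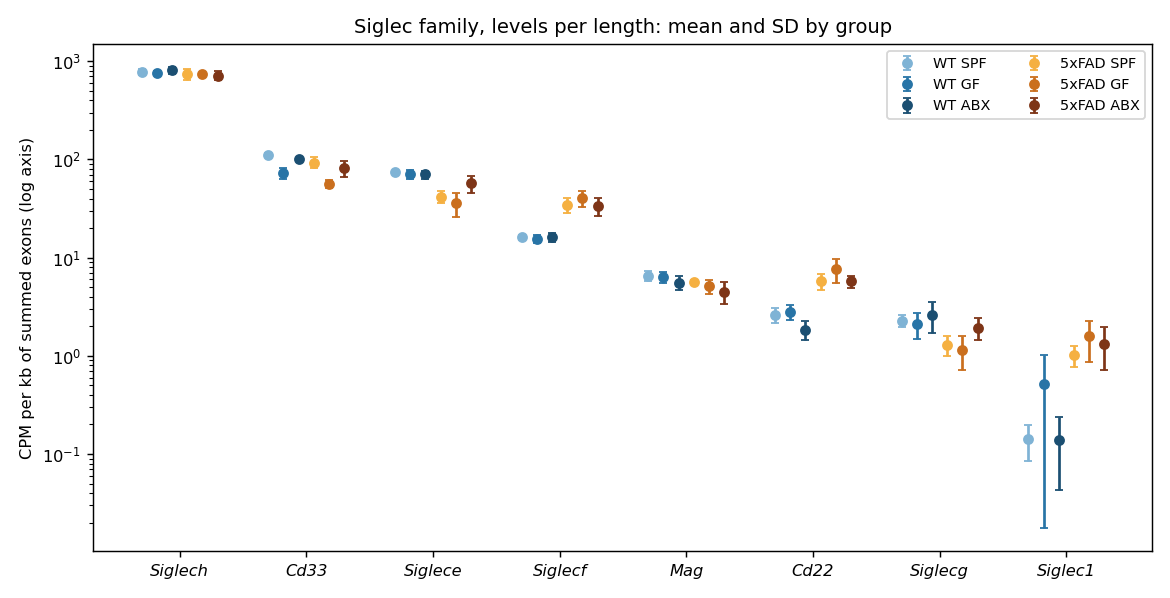
Mean CPM per kilobase of exon (log axis) of the Siglec family genes in the 6 groups, with the SD between mice as bars. Siglech lies highest, Cd33, Siglece and Siglecf follow, and Siglec1 lies lowest in WT mice.

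All 6 genes differed between 5xFAD and WT microglia when the difference was averaged over the 3 conditions, and they divided into 3 that were higher and 3 that were lower. Siglecf, Cd22 and Siglec1 rose in 5xFAD mice, and Cd33, Siglece and Siglecg fell. Of all genes tested, 25.1% were called in this comparison, 14.3% higher and 10.8% lower. In the F test over all 6 groups the 6 genes were called as well, beside 33.2% of all genes. The median difference of the 6 genes was 0.43 on the log2 scale, against -0.03 over all genes tested. This median lies between both sets of 3 genes and describes neither. In bulk RNA of sorted cells, fewer cells that express a gene and less RNA of it per cell cannot be told apart.

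**Figure D2:**
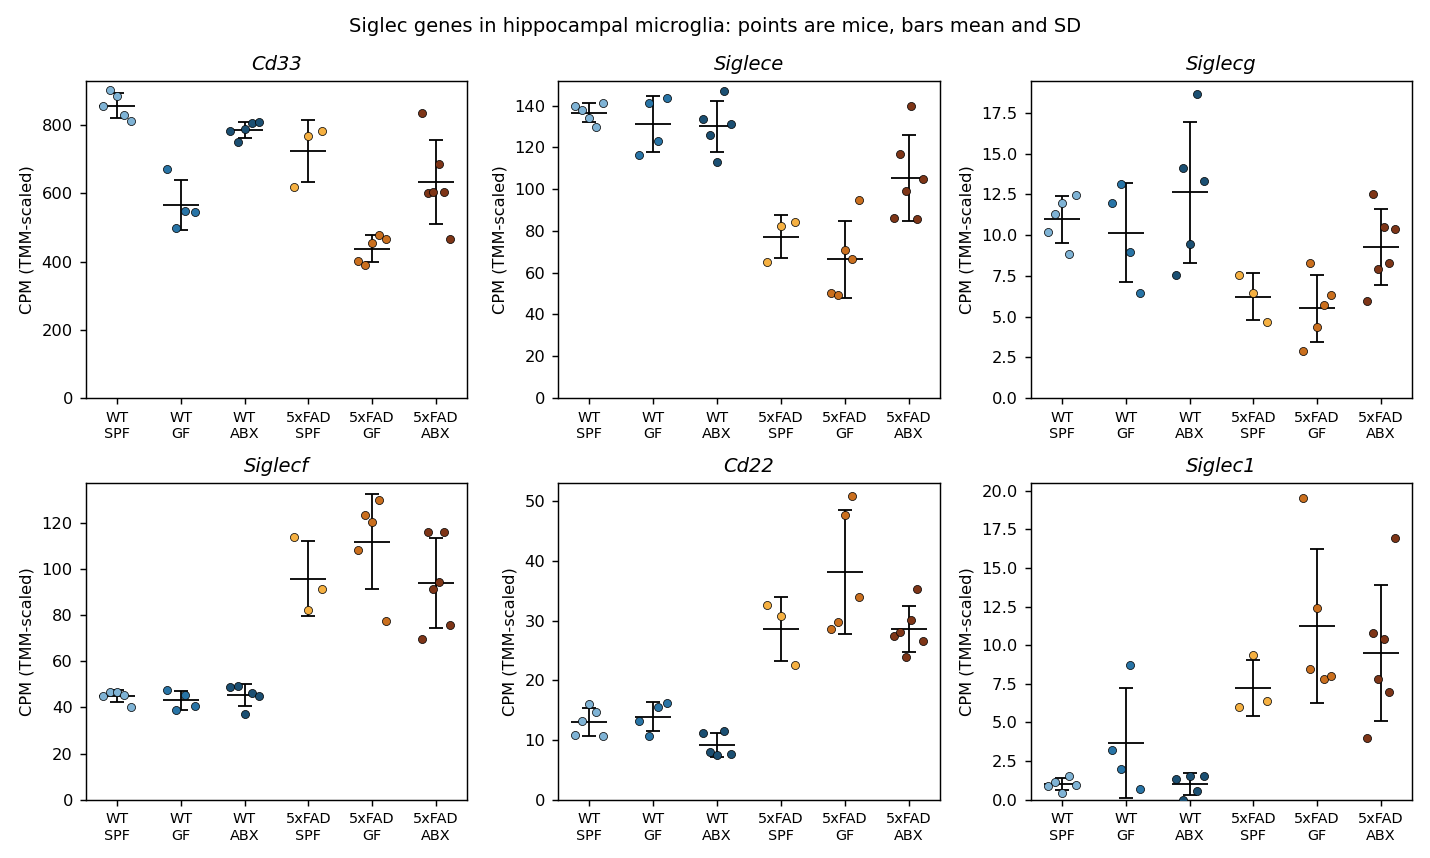
CPM of the 6 genes in each of the 28 mice (points) by group, with group means. Siglecf and Cd22 of all 5xFAD mice lie above all WT mice of the same condition, and Cd33 is lowest in GF mice of both genotypes.

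Cd33 is an inhibitory Siglec of myeloid cells in humans, whose mouse counterpart has a different cytoplasmic tail. It was the most abundant of the 6 genes in microglia. The SPF WT mice had 813, 829, 856, 884 and 904 CPM, and the ABX WT mice had 750, 783, 788, 805 and 808 CPM. The GF WT mice had 499, 544, 548 and 670 CPM. Thus every GF WT mouse lay below every SPF and ABX WT mouse. The SPF 5xFAD mice had 619, 769 and 782 CPM, and the GF 5xFAD mice had 389, 401, 453, 466 and 477 CPM. The ABX 5xFAD mice ranged from 467 to 837 CPM with a median of 605 CPM, and the highest of them was FAD_ABX_1151. All GF 5xFAD mice lay below all SPF 5xFAD mice and below all GF WT mice, whereas FAD_ABX_1482 overlapped with the GF 5xFAD mice.

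Cd33 was lower in GF than in SPF mice of both genotypes, and it was the only one of the 6 genes called in either comparison. The difference was -0.73 ± 0.12 (log2, SE) in 5xFAD mice (adjusted p = 0.000823), where 12.8% of all genes were called, and -0.60 ± 0.11 in WT mice (adjusted p = 0.00704), where 1.62% were called. ABX mice had more Cd33 than GF mice, by 0.54 ± 0.10 in 5xFAD (adjusted p = 0.00159) and 0.48 ± 0.11 in WT mice (adjusted p = 0.00999), where 10.6% and 6.88% of all genes were called. Without FAD_ABX_1151 the first of these differences was 0.45 (adjusted p = 0.00396). With offsets for GC content, an alternative added after the data were seen, the difference between ABX and GF WT mice was 0.23 (adjusted p = 0.184) and passed the threshold no longer. It was 0.42 without WT_GF_229 (adjusted p = 0.0523). Between ABX and SPF mice Cd33 was not called, with a difference of -0.19 (95% interval -0.43 to 0.04) in 5xFAD and -0.12 (-0.34 to 0.09) in WT mice, although the ranges of the WT groups did not overlap.

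The difference of Cd33 between 5xFAD and WT mice was smaller than that between GF and SPF mice in the point estimates. It was -0.31 ± 0.06 (log2, SE) over the 3 conditions (adjusted p = 0.000472). Within conditions it was -0.37 ± 0.11 in GF mice (adjusted p = 0.0192) and -0.31 ± 0.10 in ABX mice (adjusted p = 0.0317), and -0.25 ± 0.12 in SPF mice did not pass the threshold (adjusted p = 0.357). Leaving out WT_GF_199, FAD_GF_181 or FAD_GF_182 moved the adjusted p in GF mice to 0.117, 0.0565 and 0.0607, and these 3 were the only alternatives that ended that call. The call in ABX mice was lost in 11 of 38 alternatives. These were GC content offsets (-0.13, adjusted p = 0.304), only the groups compared (adjusted p = 0.106), no filter on low counts (adjusted p = 0.0636), and leaving out any 1 of 8 ABX mice, WT_ABX_909, WT_ABX_911, WT_ABX_923, WT_ABX_932, FAD_ABX_1452, FAD_ABX_1453, FAD_ABX_1460 or FAD_ABX_1482, with differences of -0.31 to -0.24 (adjusted p up to 0.0803). In order of the group means, SPF WT mice had 857 ± 37.4 CPM (SD, n = 5), ABX WT 787 ± 23.5 (n = 5), SPF 5xFAD 723 ± 90.4 (n = 3), ABX 5xFAD 634 ± 122 (n = 6), GF WT 565 ± 73.4 (n = 4) and GF 5xFAD mice 437 ± 39.7 CPM (n = 5). Of the neighbours in this order, only SPF and ABX WT mice and GF WT and GF 5xFAD mice had ranges that did not overlap.

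Siglece is the main inhibitory CD33-related Siglec of mouse microglia and neutrophils. Its level in WT mice varied little with condition. The SPF WT mice had 130, 134, 138, 140 and 141 CPM, the GF WT mice 116, 123, 141 and 144 CPM, and the ABX WT mice 113, 126, 131, 134 and 147 CPM. In 5xFAD mice it was 65.3, 82.2 and 84.4 CPM under SPF and 49.5, 50.5, 66.4, 71.0 and 94.7 CPM under GF conditions, the last in FAD_GF_201. The 6 ABX 5xFAD mice ranged from 85.6 to 140 CPM with a median of 102 CPM. Thus 5xFAD and WT mice did not overlap under SPF and GF conditions, whereas 2 of the 6 ABX 5xFAD mice lay within the range of the ABX WT mice.

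On the log2 scale Siglece fell in 5xFAD mice by 0.82 ± 0.17 (SE) under SPF (adjusted p = 0.00179) and by 0.98 ± 0.15 under GF conditions (adjusted p = 1.8e-05). Under ABX the difference of Siglece was -0.30 ± 0.13 with an adjusted p of 0.135. It was called in 2 of 38 alternatives, without FAD_ABX_1455 (-0.40, adjusted p = 0.0375) and with GC content offsets (-0.40, adjusted p = 0.0468). ABX 5xFAD mice had more Siglece than GF 5xFAD mice, by 0.67 ± 0.14 (adjusted p = 0.00297), and this difference was 0.83 (adjusted p = 0.000146) without FAD_GF_201 and 0.73 (adjusted p = 0.00308) without FAD_ABX_1151. It was called in 37 of 38 alternatives and was lost with only the groups compared (0.70, adjusted p = 0.0569). All ABX 5xFAD mice lay above all SPF 5xFAD mice, yet the difference of 0.45 ± 0.16 was not called (adjusted p = 0.634). In WT mice the same 3 differences between conditions lay between -0.07 and -0.01, with 95% intervals within -0.36 and 0.29. The effect of 5xFAD on Siglece was 0.68 ± 0.20 less negative in ABX than in GF mice, a difference between effects with an adjusted p of 0.0737. This difference between effects was called in only 4 of 37 alternatives. These were the fit without FAD_GF_201 (0.84, adjusted p = 0.0118), DESeq2 (adjusted p = 0.027), voomWithQualityWeights (0.0283) and gene length offsets (0.0469).

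Siglecg is an inhibitory receptor best known from B cells, and its level in microglia was low. The SPF WT mice had 8.87, 10.2, 11.3, 11.9 and 12.5 CPM, the GF WT mice 6.44, 8.96, 12.0 and 13.2 CPM, and the ABX WT mice 7.55, 9.45, 13.3, 14.1 and 18.7 CPM. The SPF 5xFAD mice had 4.68, 6.44 and 7.55 CPM and the GF 5xFAD mice 2.88, 4.33, 5.72, 6.33 and 8.30 CPM. The ABX 5xFAD mice ranged from 5.98 to 12.5 CPM with a median of 9.30 CPM. Under SPF conditions 5xFAD and WT mice did not overlap, and under GF and ABX conditions they did. Over the 3 conditions Siglecg fell in 5xFAD mice by 0.71 ± 0.16 (log2, SE; adjusted p = 0.00114). The difference was called in GF mice (-0.88 ± 0.27, adjusted p = 0.027) and neither in SPF mice (-0.82 ± 0.31, adjusted p = 0.156) nor in ABX mice (-0.45 ± 0.24, adjusted p = 0.241). The call in GF mice was lost without WT_GF_199, WT_GF_229, FAD_GF_181 or FAD_GF_184, with adjusted p between 0.0682 and 0.105, and with voomWithQualityWeights (adjusted p = 0.0856) and only the groups compared (adjusted p = 0.0798). These last 2 alternatives called the difference in SPF mice, with -0.97 (adjusted p = 0.00479) and -0.81 (adjusted p = 0.0196). Between ABX and GF 5xFAD mice Siglecg differed by 0.75 ± 0.25 with an adjusted p of 0.0536. In 11 of 38 alternatives this difference was called, among them DESeq2 (adjusted p = 0.0289), library size alone (0.0313) and the fit without FAD_ABX_1151 (0.0401). Of 50-base windows of its transcripts, 4.64% were shared with other genes, mostly the gene model Gm29791, so single reads there cannot be assigned with certainty.

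Siglecf is an inhibitory CD33-related Siglec known from eosinophils and alveolar macrophages. It was higher in every 5xFAD mouse than in every WT mouse. The SPF WT mice had 40.4, 44.8, 45.3, 46.7 and 46.8 CPM, the GF WT mice 38.9, 40.6, 45.3 and 47.5 CPM, and the ABX WT mice 37.3, 45.1, 46.4, 49.0 and 49.2 CPM. The SPF 5xFAD mice had 82.3, 91.2 and 114 CPM and the GF 5xFAD mice 77.6, 108, 120, 123 and 130 CPM, the lowest in FAD_GF_201. The ABX 5xFAD mice ranged from 69.7 to 116 CPM with a median of 93.0 CPM, and the lowest was FAD_ABX_1151. The rise in 5xFAD mice was 1.10 ± 0.15 (log2, SE) under SPF (adjusted p = 1.2e-05), 1.38 ± 0.15 under GF (adjusted p = 7.3e-08) and 1.05 ± 0.13 under ABX conditions (adjusted p = 1.3e-06). It was 1.49 in GF mice without FAD_GF_201 and 1.12 in ABX mice without FAD_ABX_1151. Between conditions Siglecf was not called in either genotype. The differences in WT mice lay between -0.06 and 0.08, and that between ABX and GF 5xFAD mice was -0.25 (95% interval -0.52 to 0.01). The sum of 8 eosinophil markers, relative to library totals, was 0.395 to 7.00 CPM in WT and 0.0404 to 6.31 CPM in 5xFAD mice, and Prg2, Ear1 and Ear6 had 0 reads in all 28 libraries. Ccr3 made up most of it, with a mean of 2.80 CPM, and Ear2 had 0.168 CPM and no reads in 20 libraries. Of the 2 markers with enough reads to test, Ear2 was called higher in 5xFAD mice over the 3 conditions (adjusted p = 0.00992), beside 14.3% of all genes. The other, Ccr3, had an estimate of -0.59 and was not called (adjusted p = 0.24).

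Cd22 is the inhibitory co-receptor of B cells, also known to restrain phagocytosis by aged microglia. The SPF WT mice had 10.7, 10.8, 13.1, 14.6 and 16.0 CPM, the GF WT mice 10.7, 13.2, 15.6 and 16.2 CPM, and the ABX WT mice 7.43, 7.67, 8.06, 11.2 and 11.5 CPM. The SPF 5xFAD mice had 22.5, 30.8 and 32.6 CPM and the GF 5xFAD mice 28.6, 29.8, 33.9, 47.7 and 50.9 CPM. The ABX 5xFAD mice ranged from 23.9 to 35.3 CPM with a median of 27.8 CPM. As for Siglecf, every 5xFAD mouse lay above every WT mouse. The rise was 1.14 ± 0.20 (log2, SE) under SPF (adjusted p = 0.000319), 1.46 ± 0.19 under GF (adjusted p = 2.3e-06) and 1.64 ± 0.18 under ABX conditions (adjusted p = 7.9e-08).

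Among the 5xFAD mice, FAD_GF_184 and FAD_GF_185 had the highest levels of Cd22, and the difference between ABX and GF mice was -0.42 ± 0.17 (adjusted p = 0.104). In WT mice ABX was below GF by 0.60 ± 0.19 on the log2 scale, with an adjusted p of 0.0533, and this was called in 7 of 38 alternatives, among them DESeq2 (adjusted p = 0.0264). The sum of 10 B cell markers, relative to library totals, was 549 to 798 CPM in WT and 585 to 809 CPM in 5xFAD mice. Ighm made up most of it with a mean of 649 CPM, followed by Cd79b with 36.8 CPM, whereas Ms4a1 had 0 reads in 27 libraries, Pax5 in 26 and Blk in 26. Of 3 markers tested, 1 was higher in 5xFAD mice over the 3 conditions, Ighm with 0.16 ± 0.06 on the log2 scale (adjusted p = 0.0461), beside 14.3% of all genes. The others, Cd79b (-0.18) and Cr2 (-0.57), had negative estimates and were not called. The antisense gene Gm29439 covers 479 exon bases of Cd22 (9.5%), and the library kit does not keep strand, so that reads of the pair cannot be told apart there.

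**Figure D3:**
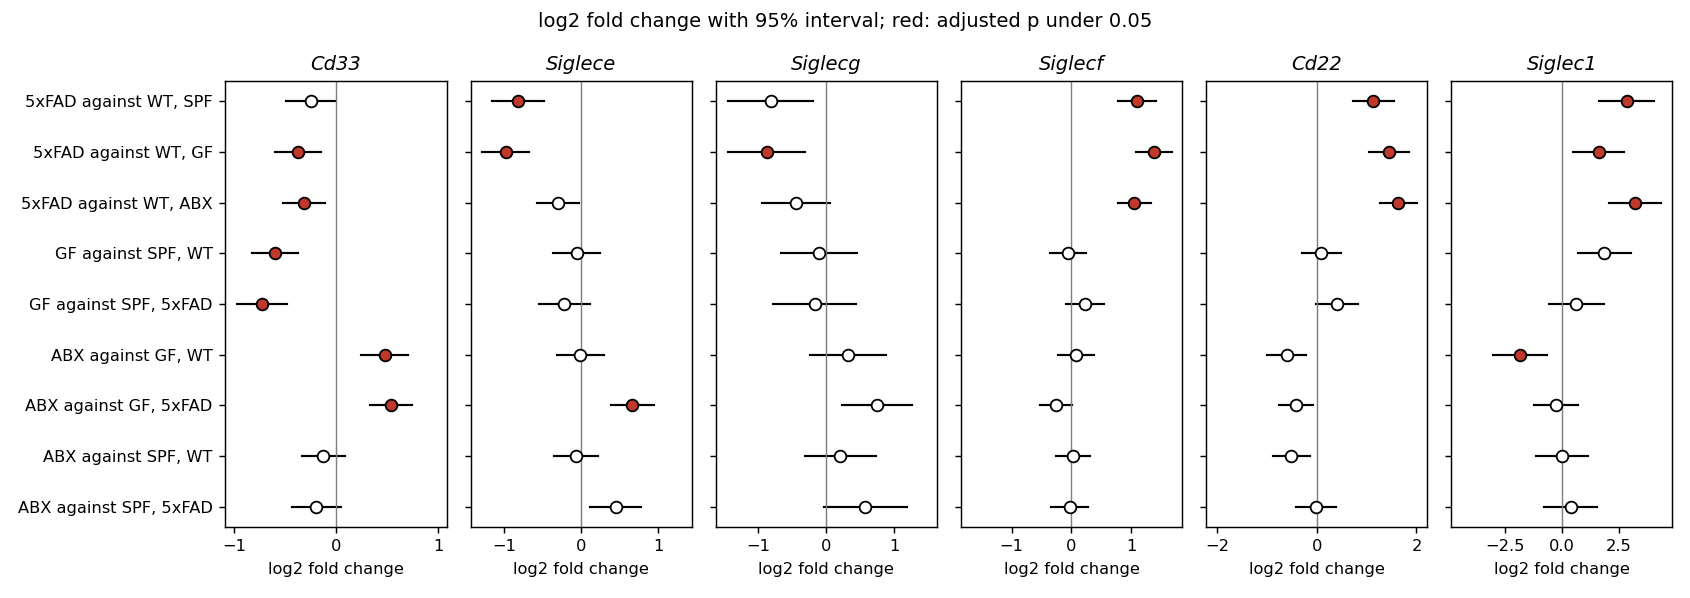
Log2 differences of the 6 genes with 95% intervals in the comparisons of genotype and condition; each panel has its own scale. Siglecf, Cd22 and Siglec1 lie above 0 in 5xFAD against WT mice of every condition, and Cd33 lies below 0 in GF against SPF mice of both genotypes.

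Siglec1, or sialoadhesin, is an adhesion receptor of macrophages and a known target of type I interferon. Averaged over the 28 mice it had the lowest level of the 6 genes, both in CPM and per length. In 5xFAD mice, however, its mean CPM lay above that of Siglecg in every condition. The means were 7.26 against 6.22 under SPF, 11.2 against 5.51 under GF and 9.50 against 9.25 CPM under ABX conditions. Per length Siglec1 lay above Siglecg in GF 5xFAD mice alone (1.57 against 1.15 CPM per kilobase). Its log2 difference between genotypes over the 3 conditions was the largest of the 6. The SPF WT mice had 0.447, 0.896, 0.982, 1.15 and 1.55 CPM, and the ABX WT mice had 0, 0.543, 1.37, 1.54 and 1.55 CPM, where the 0 of WT_ABX_910 allows at most 0.208 CPM. The GF WT mice had 0.708, 1.99, 3.22 and 8.74 CPM, the highest in WT_GF_230. The SPF 5xFAD mice had 6.03, 6.40 and 9.35 CPM, and the GF 5xFAD mice 7.79, 7.99, 8.48, 12.4 and 19.5 CPM. The ABX 5xFAD mice ranged from 4.00 to 16.9 CPM with a median of 9.14 CPM. Under SPF and ABX conditions 5xFAD and WT mice did not overlap, and under GF conditions WT_GF_230 lay above 3 of the 5 GF 5xFAD mice.

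Siglec1 rose in 5xFAD mice by 2.83 ± 0.60 (log2, SE) under SPF (adjusted p = 0.00261) and by 3.21 ± 0.55 under ABX conditions (adjusted p = 0.000125). In GF mice the rise was 1.61 ± 0.56 (adjusted p = 0.0469), and without WT_GF_230 it was 2.48 (adjusted p = 0.00426). Without FAD_GF_181 it was 1.32 (adjusted p = 0.129), and this call was lost in 20 of 37 alternatives. ABX WT mice had less Siglec1 than GF WT mice, by 1.84 ± 0.57 on the log2 scale (adjusted p = 0.0486), and without WT_GF_230 the difference was -0.95 (adjusted p = 0.364). This call was lost in 26 of 37 alternatives, 22 of them with 1 mouse left out and the others with library size alone, voomWithQualityWeights, GC content offsets and only the groups compared (adjusted p of 0.0534, 0.0774, 0.153 and 0.127). GF and SPF WT mice differed by 1.86 ± 0.57, which was not called (adjusted p = 0.088), and by 0.97 (adjusted p = 0.449) without WT_GF_230. None of the 3 differences between conditions was called in 5xFAD mice, where they lay between -0.24 and 0.63.

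Other genes moved with Siglec1 between the groups. The sum of 18 interferon-stimulated genes, relative to library totals, was 169 to 240 CPM in SPF WT, 198 to 251 CPM in ABX WT and 137 to 180 CPM in 3 of the GF WT mice, but 556 CPM in WT_GF_230. In 5xFAD mice it was 588 to 595 CPM under SPF, 437 to 1195 CPM under GF and 400.2 to 1253 CPM under ABX conditions. All 18 of these genes rose in 5xFAD mice over the 3 conditions, beside 14.3% of all genes, with a median of 1.82 on the log2 scale against -0.03 over all genes. Examples are Ifi27l2a (3.49 ± 0.19, adjusted p = 6.6e-15), Bst2 (1.13 ± 0.10), Oas1a (2.62 ± 0.25) and Ifitm3 (3.09 ± 0.29), which belong to the antiviral programme.

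Siglec1 is also known from border-associated macrophages, which typically carry more CD45 on their surface than microglia. The sort took CD45low cells without Ly6C. The sum of 9 of their 10 markers, without Stab1, which microglia also express, was 3.48 to 8.15 CPM in SPF WT, 11.0 to 45.0 in GF WT and 3.80 to 5.90 CPM in ABX WT mice. It was 16.6 to 30.7 CPM in SPF, 10.6 to 83.6 in GF and 36.5 to 269 CPM in ABX 5xFAD mice. Of the 10 markers, 9 were higher and 1, Stab1, lower in 5xFAD mice over the 3 conditions, beside 14.3% and 10.8% of all genes. Under GF conditions none of the 9 was called, where 9.43% of all genes were called higher and 6.2% lower. The marker Cd163 had 0 reads in 10 libraries, Lyve1 in 13 and Cd209f in 12. Over the 28 mice, log2 Siglec1 had a Pearson correlation of 0.88 with the interferon sum and of 0.78 with the macrophage sum. As deviations from the group means the correlations were 0.57 and 0.48. These are descriptions over mice that share groups and libraries, and the part of either list in the level of Siglec1 was not tested.

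**Figure D4:**
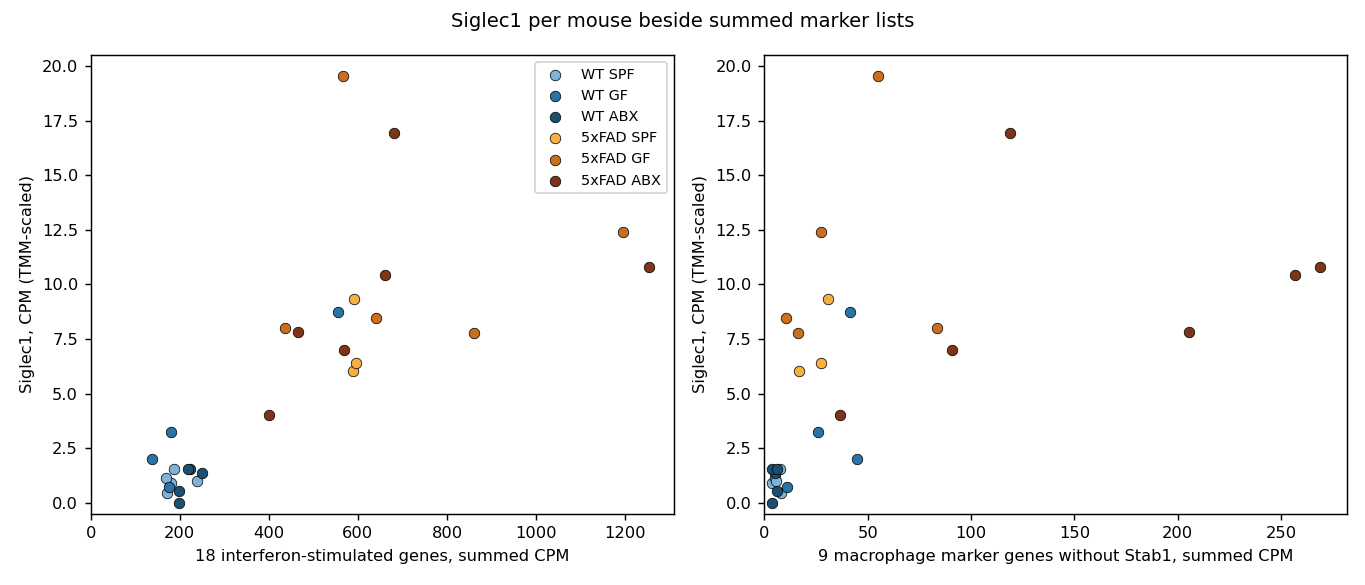
Siglec1 in CPM against the summed CPM of interferon-stimulated genes and of border-associated macrophage markers without Stab1, 1 point per mouse. WT_GF_230 has the highest Siglec1 and interferon sum of the WT mice, with 8.74 and 556 CPM.

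Read by condition, 4 of the 6 genes were called in 5xFAD against WT mice under SPF conditions, 3 higher and 1 lower, beside 4.57% of all genes (3.73% higher and 0.837% lower). Under GF conditions all 6 were called, 3 higher and 3 lower, beside 15.6% of all genes (9.43% and 6.2%). With 1 mouse left out, the number called under GF conditions was 3 to 6. Under ABX conditions 4 were called, 3 higher and 1 lower, beside 14.4% of all genes (9.45% and 4.98%). The 3 genes called higher were Siglecf, Cd22 and Siglec1 in each condition. The gene called lower was Siglece under SPF and Cd33 under ABX conditions. The medians of the 6 genes were 0.43, 0.50 and 0.37 on the log2 scale under SPF, GF and ABX conditions, and those of all genes lay between -0.03 and -0.01.

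Whether the effect of 5xFAD differed between conditions was tested as a difference of differences. None of the 6 genes was called in any of the 3 such comparisons, where the share of all genes called was 0% between GF and SPF, 0% between ABX and SPF and 1.76% between ABX and GF mice. At an unadjusted p under 0.05 there were 0, 1 and 2 of the 6 genes, and 1304, 1032 and 2436 of all genes. DESeq2 called 25, 1 and 576 genes and voomWithQualityWeights 116, 14 and 281. Both called 1 of the 6 genes for ABX against GF, Siglece, and none for the other comparisons. The effect on Siglec1 was larger in ABX than in GF mice by a 95% interval of 0.08 to 3.12 (adjusted p = 0.282) and 0.72 larger without WT_GF_230. A difference between GF and SPF mice was not detected for any of the 6 genes, with intervals as wide as -2.86 to 0.41 for Siglec1 and as narrow as -0.46 to 0.21 for Cd33.

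Antibiotics did not move any of the 6 genes past the threshold against SPF mice. In this comparison 0% of all genes were called by edgeR in either genotype, with 1085 genes in 5xFAD and 687 in WT mice at an unadjusted p under 0.05. These included 1 of the 6 genes each, Siglece in 5xFAD (0.45) and Cd22 in WT mice (-0.51). DESeq2 called 8 and 2 genes and voomWithQualityWeights 134 and 0, none of them one of the 6.

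The other Siglec family genes had smaller differences between the genotypes in the estimates. Siglech was 2558 CPM on average over the 28 mice, with single mice between 2017 and 3002 CPM and overlapping groups in every condition. Its difference between 5xFAD and WT mice over the 3 conditions was -0.11 on the log2 scale and was not called (adjusted p = 0.0848). Mag fell by 0.27 ± 0.10 (adjusted p = 0.0406) over the 3 conditions and was called in no single condition (adjusted p of 0.723, 0.261 and 0.200 under SPF, GF and ABX conditions). Its ranges overlapped under GF conditions, with 21.8 to 28.6 CPM in WT and 16.5 to 25.1 CPM in 5xFAD mice, and under ABX conditions, with 18.9 to 27.4 and 10.6 to 23.3 CPM. Under SPF conditions they were 24.2 to 30.8 CPM in WT and 21.99 to 23.9 CPM in 5xFAD mice.

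The genes that pass on Siglec signals did not move in 1 direction. Of 12 signalling partners tested, 3 rose and 4 fell in 5xFAD mice over the 3 conditions, where 14.3% of all genes rose and 10.8% fell, with a median of -0.10 on the log2 scale against -0.03 over all genes. Tyrobp, the activating adaptor of Siglech, rose by 1.30 ± 0.08 (SE; adjusted p = 1.2e-13), and the related adaptor Hcst rose by 0.97 ± 0.09 (adjusted p = 2.6e-09). The phosphatase Ptpn6, which binds the inhibitory motifs, rose by 0.21 ± 0.06 (adjusted p = 0.00605). Lyn, the kinase that phosphorylates these motifs, fell by 0.21 ± 0.04 (adjusted p = 9.9e-05), and Csk, which restrains such kinases, fell by 0.27 ± 0.05 (adjusted p = 0.000226). Thus both adaptors rose and both of these kinases fell. The kinase Syk and the ubiquitin ligase Cbl fell as well.

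Tyrobp had 894 ± 87.1 CPM (SD, n = 5) in SPF WT, 921 ± 139 (n = 4) in GF WT and 943 ± 85.7 CPM (n = 5) in ABX WT mice. In 5xFAD mice it had 1955 ± 157 CPM (n = 3) under SPF, 3275 ± 711 (n = 5) under GF and 1822 ± 328 CPM (n = 6) under ABX conditions. The effect of 5xFAD differed between ABX and GF mice for 3 of the 12 partners, and for 1.76% of all genes. It was 0.88 lower in ABX mice on the log2 scale for Tyrobp (adjusted p = 0.0157) and 0.87 lower for Hcst (adjusted p = 0.042), and 0.55 higher for Inpp5d, an inositol phosphatase (adjusted p = 0.0237). Inpp5d changed direction, with -0.30 in 5xFAD mice under GF (adjusted p = 0.0252) and 0.25 under ABX conditions (adjusted p = 0.0368).

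Genes that build, attach, remove and modify sialic acids, the ligands of the Siglecs, were compared in the same way. Of 9 genes of sialic acid synthesis and turnover 8 were tested, and over the 3 conditions 3 rose and 1 fell, with a median of 0.13 on the log2 scale. As above, 14.3% of all genes rose and 10.8% fell in this comparison. Renbp, which interconverts the precursor sugars, rose by 0.46 ± 0.05 (adjusted p = 4.0e-08), Nagk by 0.34 ± 0.08 and Nans by 0.26 ± 0.10, and Slc35a1, the transporter of activated sialic acid, fell by 0.18 ± 0.07.

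Of 20 sialyltransferases 12 were tested, of which 2 rose and 1 fell, with a median of 0.07. Beside the 25.1% of all genes called in this comparison, these 3 of 12 genes are no more than the background. St8sia6, which adds sialic acid to sialic acid, rose by 1.67 ± 0.17 (adjusted p = 1.1e-08), from 31.8 ± 3.03 to 93.8 ± 32.5 CPM (SD, n = 5 and 3) in SPF mice. St6gal1, which makes the sialic acid linkage that Cd22 binds, rose by 0.44 ± 0.08 (adjusted p = 0.000172), and St3gal5, the ganglioside GM3 synthase, fell by 0.28 ± 0.05 (adjusted p = 9.5e-05). A list of 8 genes held the sialidases, the proteins that form a complex with Neu1, and Siae and Casd1, which remove and add acetyl groups on sialic acid rather than remove sialic acid itself. Of these 6 were tested, of which 4 rose and none fell, beside the same shares of all genes, with a median of 0.36. The lysosomal sialidase Neu1 rose by 0.41 ± 0.06 (adjusted p = 1.1e-05). The 2 proteins that form a complex with it rose more in the estimates, Ctsa by 0.79 ± 0.05 (adjusted p = 1.2e-12) and Glb1 by 0.97 ± 0.07 (adjusted p = 2.4e-12). The acetyl esterase Siae rose by 0.32 ± 0.07. In single conditions 2, 4 and 3 genes of this list were called higher under SPF, GF and ABX, where 3.73%, 9.43% and 9.45% of all genes were.

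**Figure D5:**
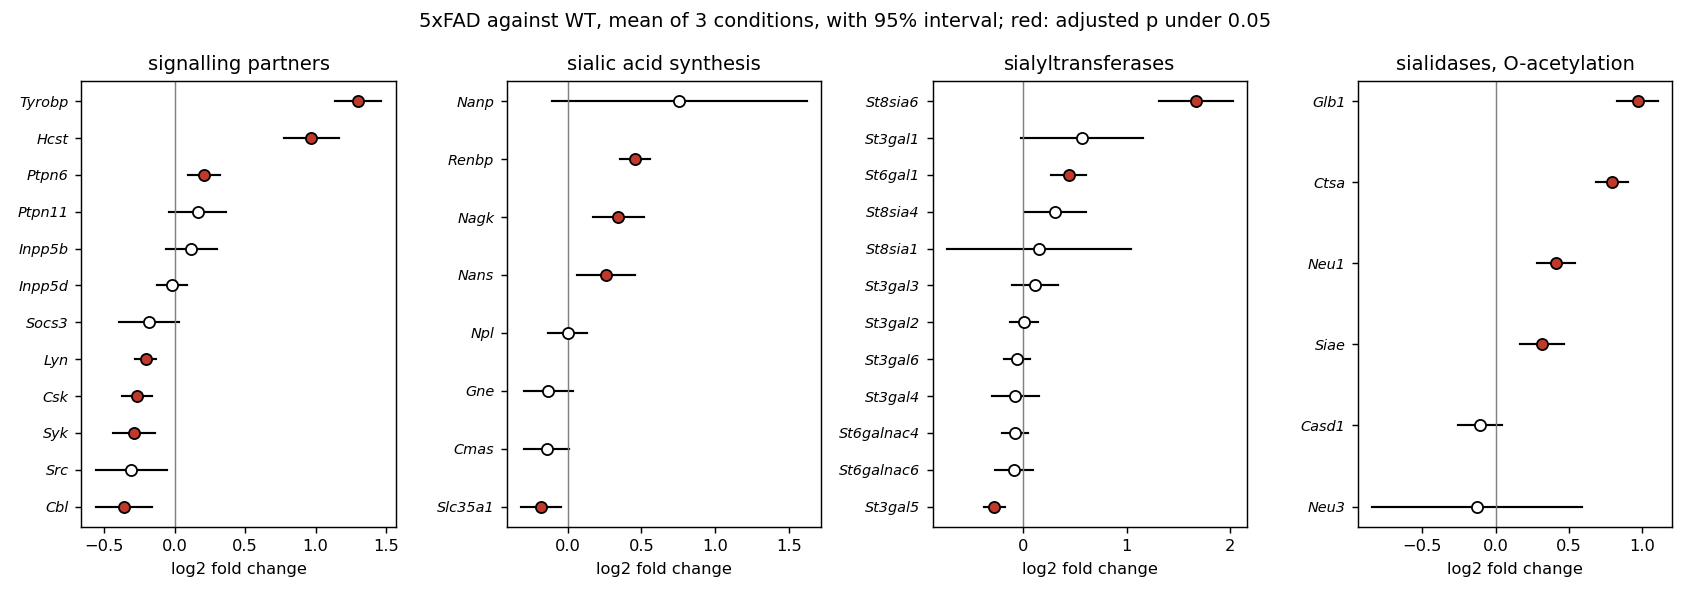
Log2 difference of 5xFAD against WT mice over the 3 conditions for each tested gene of the signalling partners and the sialic acid lists, with 95% intervals. Tyrobp and St8sia6 show the largest called differences, with 1.30 and 1.67.

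The genes most like each of the 6 genes were taken by Pearson correlation of log2 CPM over the 28 mice among 8927 genes of sufficient level (8928 for Siglec1). For Cd33 they were Mef2a (0.95), Rp2 (0.94) and Ccdc50 (0.93), and these kept correlations of 0.76 to 0.81 as deviations from the group means. For Siglece they included Lpar6 (0.94) and Ggta1 (0.89), and for Siglecg they were Pnrc2 (0.78), Cass4 (0.78) and Rgs19 (0.78). Siglecf was most like Ctsb (0.96), Hexa (0.96) and Cd52 (0.96), Cd22 most like Fam20c (0.96), Apoe (0.94) and Pld3 (0.94), and Siglec1 most like Fxyd5 (0.89), Chst2 (0.87) and Ptchd1 (0.87). Among the 6 genes the highest correlation was that of Siglecf with Cd22 (0.90, and 0.42 as deviations), and the lowest that of Siglece with Siglecf (-0.80, and -0.27 as deviations). As deviations from the group means the correlations of the genes named for the other 5 lay between 0.38 and 0.74. The mice share groups, libraries and scaling, so these values are a description.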

How the data were processed

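The authors sorted hippocampal microglia, made SMARTer v4 and Nextera XT libraries, aligned single reads to GRCm38 with STAR 2.7.2 and counted them per gene (GENCODE M21) with featureCounts 1.6.2. The deposited values are raw counts, used here without the 92 spike-in entries. The submitters' notes also list a human build, which was not used.

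Counts were scaled by TMM in edgeR 4.0.16 (R 4.3.3). Genes were kept by filterByExpr (minimum count 10, minimum total 15), which left 15298. The quasi-likelihood test used 1 term per group over 28 mice, with Benjamini-Hochberg adjustment over all genes tested and a threshold of 0.05. Replicates are separate mice. Marker sums refer to library totals, log2 values of sums add a pseudocount of 1, and correlations used log2 CPM with a prior count of 2. Named were the 6 genes and their family, up to 4 genes per list by adjusted p, the 2 most abundant markers and those at 0, and the 3 genes most like each member; Syk, Cbl and Ptpn6 were added after their values were seen. A gene among those most like a member and a marker gene are not reported here. Genes and lists were chosen with earlier results of these data known.

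Alternatives were other scalings and filters, length or GC content offsets, DESeq2 1.42.0, voomWithQualityWeights (limma 3.58.1), only the groups compared, 26 mice (without FAD_ABX_1151 and FAD_ABX_1482), and leaving out each mouse. The procedure was tested on simulated data. Figures were drawn with matplotlib 3.10.9.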

Additional observations from a re-analysis of the deposited data

How the results depend on the processing

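Of 37 differences of single genes under up to 38 alternatives, none changed direction; of 1390 values, 1293 stayed on their side of the threshold, 69 were no longer called and 28 became called. The number of the 6 genes called in 5xFAD against WT mice under GF conditions was 3 to 6 when 1 mouse was left out, with 3 without WT_GF_199 or FAD_GF_181. For ABX against GF in WT mice (2 called) it was 1 with library size alone, with voomWithQualityWeights and with only the groups compared, 0 with GC content offsets, and 0 to 3 when 1 mouse was left out, with 0 without WT_GF_229. For GF against SPF it was 2 in 5xFAD mice with voomWithQualityWeights (1 called), and 2 in WT mice with DESeq2 and with only the groups compared (1 called). Over all genes, voomWithQualityWeights called 3872 in that 5xFAD comparison and DESeq2 called 707 in that WT comparison. The main test called 1962 and 248 there. For ABX against GF in 5xFAD mice the number of the 6 genes called was 1 with only the groups compared (2 called). For the difference of 5xFAD effects between ABX and GF (0 called) it was 1 with DESeq2, voomWithQualityWeights and gene length offsets, and 0 to 1 when 1 mouse was left out, with 1 without FAD_GF_201. Library size alone moved the median of all genes in 5xFAD against WT mice under GF conditions by -0.12 and gave 1107 genes higher and 1919 lower, where TMM gave 1442 and 949. Under ABX conditions library size alone moved this median by -0.08 and gave 1160 higher and 1311 lower, where TMM gave 1445 and 762. Under SPF conditions it gave 533 higher and 215 lower, where TMM gave 571 and 128. The causes were not tested. No paired analysis was possible because mouse numbers are not shared between groups. Depth limits Siglec1 most, which had 0 to 366 reads per library.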
